A study of Danio rerio with 9 samples.

Results

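Chromatin contacts of the regenerating zebrafish tail fin were compared between 1 and 4 days post amputation (dpa), the time of blastema formation and the time of outgrowth. The data were 45700 called contacts of the 74121 in the series: 18712 in the 1 dpa list and 26988 in the 4 dpa list. Each contact is a pair of 10 kb bins on the same chromosome, and all pairs of both lists were included. The 0 dpa list, with 28421 pairs from uninjured fins, was used only to say whether a difference between 1 and 4 dpa led back to the uninjured state. Per the labels, the fish were wild type adults of the outbred Ekkwill strain, about 6 to 8 months old, and were anesthetised with 2-phenoxyethanol, which all groups share. Caudal fins were amputated at 50% of their length. Tissue was clipped on the day of amputation (0 dpa) or after 1 or 4 days of regrowth. At each time point 3 pools of 10 fish were collected, so that the comparison rests on 6 of the 9 pools of the series. Because whole clips were pooled, a contact that changes within cells and a shift in the mix of cell types cannot be told apart. Contact lists hold no expression values, so the tissue label could not be checked against marker genes.

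After a fin is cut, epidermis closes the wound and dedifferentiated connective tissue and bone cells gather under it as a blastema. The blastema then proliferates and lays down new rays during outgrowth. Enhancers act on promoters at a distance through loops of the chromatin fibre, which cohesin extrudes and which CTCF-bound sites often arrest. HiCAR records such contacts at open chromatin. Tn5 transposase inserts an adaptor at accessible sites of cross-linked nuclei, and the adaptor is joined to DNA lying close by in space that a restriction enzyme has cut. Contact frequency and the openness of an anchor therefore cannot be told apart in the count of a pair.

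The deposited lists held 1 value per time point, with no values for single pools. No test between times was possible, and no interval given here covers the spread between pools. Every listed pair had a contact count of at least 12, a count at least 2 times the count expected by the authors' background model, and a false discovery rate (FDR) under 0.01. For pairs without a called neighbour, the singletons described below, every listed FDR was under 0.0001. What missed these limits is not in the lists and has no value. The median count of a called pair was 26 at 1 dpa and 28 at 4 dpa, against 29 at 0 dpa. Total depth is unknown. Shared pairs, those listed with identical bins at 1 and 4 dpa, had by the median 1.18 times as many counts at 4 dpa as at 1 dpa, and the 4 dpa list was longer. How much of the longer list came from depth was not tested.

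Most contacts of the blastema stage were also called during outgrowth. The longer 4 dpa list held more pairs without a counterpart than the 1 dpa list. A pair was taken as kept when the other list held a pair with both anchors within 1 bin of its own. Of the 1 dpa pairs, 16054 (85.8%) were kept, and 2658 (14.2%, exact binomial interval 13.7 to 14.7) had no 4 dpa counterpart and are called lost. Of the 4 dpa pairs, 19180 (71.1%) were kept and 7808 (28.9%, 28.4 to 29.5) had no 1 dpa counterpart and are called gained. These binomial intervals, at the 95% level, cover counting error only and treat pairs as independent, which neighbouring pairs are not. "Gained" and "lost" describe presence in a list, not a tested change. With the longer lists shortened to the 18712 pairs of lowest FDR, 4786 were gained and 3322 lost. When identical bins were required, 14300 were gained and 6024 lost. The excess of gained over lost pairs was thus smaller, but present, when the lists had equal length. With identical bins the excess equals the difference in list length. With equal lengths it can arise only where several 1 dpa pairs match the same 4 dpa pair within 1 bin. Neither alternative can therefore show whether more contacts were new than missing.

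The matching limit of 1 bin fell in a graded range of distances. In the 1 dpa list 12688 pairs (67.8%) were called in identical bins at 4 dpa, and 3366 more (18%) had their nearest 4 dpa call 1 bin away. Just outside the limit, 721 pairs (3.85%) had it 2 bins away. Median count over expected was 4.53 for pairs in identical bins, 3.58 at 1 bin and 3.32 at 2 bins. Farther away it did not keep falling: 3.17 at 3 to 5 bins, 3.25 at 6 to 10 and 3.66 at over 10. Median spans differed too, 90, 80 and 50 kb in the first 3 groups, and the values were not compared within spans. Of the 4 dpa pairs, 1702 (6.31%) had their nearest 1 dpa call 2 bins away, while for 2977 (11%) it was over 10 bins away. In the 1 dpa list 771 pairs (4.12%) were that far from any 4 dpa call. Contacts remote from every call of the other stage were therefore a larger share of the outgrowth list. The 4 dpa pairs were searched against the shorter list, and these distances were not computed with lists of equal length.

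Most lost and gained pairs lay in clusters without a kept pair or were single pairs. The authors grouped neighbouring called pairs into clusters, and a pair with no called neighbour was marked as a singleton. Of the 7808 gained pairs, 1202 (15.4%) lay in a cluster that also held a kept pair, and of the 2658 lost pairs 330 (12.4%) did. A pair at the edge of a kept cluster counts as kept if it lies within 1 bin of a call in the other list. The matching rule therefore lowers these shares, by an amount that was not tested. Singletons made up 48.2% of lost and 30.8% of gained pairs, against 14.5% of kept pairs at 1 dpa and 9.88% of kept pairs at 4 dpa. Counted as clusters, 1766 of 7663 (23.0%) at 1 dpa had no counterpart in any of their pairs, and 4140 of 9932 (41.7%) at 4 dpa had none. Among clusters of 2 or more pairs these shares were 12% at 1 dpa and 30.8% at 4 dpa. Here too the 4 dpa pairs were matched against the shorter list, and the cluster shares were not computed with lists of equal length.

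The largest clusters new at 4 dpa were up to 320 kb in span, and the largest missing at 4 dpa held fewer pairs. These examples were chosen after their values were seen. On chromosome 11 a gained cluster of 9 pairs joined 44690001–44740000 to 44770001–44800000 with 17 to 59 counts per pair, and 8 of its pairs had a 0 dpa counterpart. On chromosome 8 another 9 pairs joined 29890001–29920000 to 30110001–30160000 with 14 to 22 counts and a median count over expected of 4.86. A gained cluster of 9 pairs on chromosome 9 joined 30780001–30830000 to 31080001–31110000 over 270 to 320 kb, and 4 of its pairs had a 0 dpa counterpart. The largest lost cluster had 6 pairs on chromosome 13, between 42550001–42580000 and 42580001–42610000. It spanned 20 to 50 kb with 24 to 52 counts per pair, and all 6 pairs had a counterpart in uninjured fins.

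Lost contacts had shorter spans than gained contacts by the median. The span of a pair is the distance between its bin starts, and the shortest in every list was 20 kb. Lost pairs had a median span of 40 kb (quartiles 20 and 120), gained pairs 90 kb (30 and 190), and kept pairs 90 kb at both times (40 and 160 at 1 dpa, 50 and 180 at 4 dpa). With identical bins required, the medians were 70 kb for lost and 100 kb for gained pairs, a smaller difference. Spans of 50 kb or less were 57.1% of the lost set and 37.4% of the gained set. They were 36.9% of the 1 dpa list and 32.0% of the 4 dpa list. The gained set thus had the median span of the kept pairs, while the lost set lay closer to the floor of 20 kb.

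**Figure D1:**
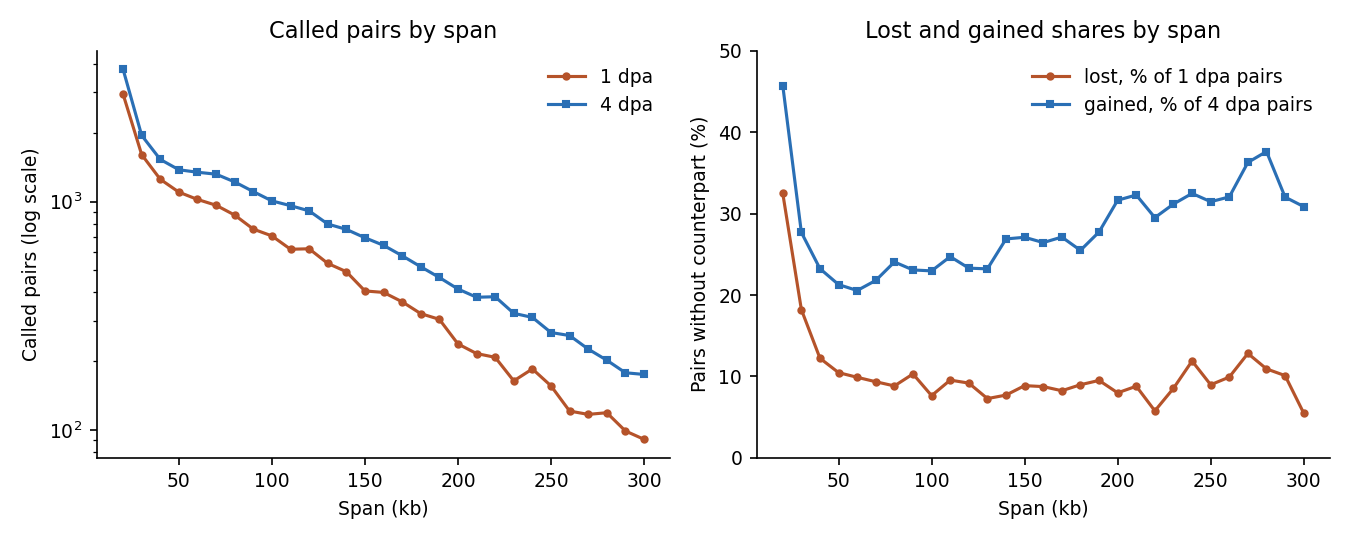
Left, number of called pairs at each span from 20 to 300 kb at 1 dpa (circles) and 4 dpa (squares), on a log scale. Right, percent of 1 dpa pairs lost and of 4 dpa pairs gained at each span. Lost pairs go from 32.5% at 20 kb to 10.5% at 50 kb, while gained pairs are lowest, at 20.6%, at 60 kb.

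By span class, up to 500 kb, the 4 dpa list outnumbered the 1 dpa list more in each longer class. In steps of 10 kb the ratio did not rise steadily. It was 1.28 at 20 kb and 1.21 at 30 kb, and 1.71 at 150 kb and 1.52 at 190 kb. At most 50 kb apart there were 6906 pairs at 1 dpa and 8644 at 4 dpa, or 1.25 times as many. From 60 to 100 kb the numbers were 4320 and 5989 (1.39 times), and from 110 to 200 kb 4304 and 6734 (1.56 times). From 210 to 500 kb they were 2313 and 4401 (1.90 times). Above that the ratio was 1.78 from 510 kb to 1 Mb (286 and 510 pairs) and 1.22 over 1 Mb (583 and 710 pairs). The number of gained pairs per lost pair had a similar shape, while the lost and gained shares did not. At most 50 kb apart, 22.0% of 1 dpa pairs were lost and 33.8% of 4 dpa pairs gained. From 210 to 500 kb, 8.99% were lost (7.86 to 10.2) and 33.1% gained (31.7 to 34.5), which is 7.01 gained pairs for each lost one, against 1.92 at most 50 kb apart. Over 1 Mb, 20.8% were lost and 22.8% gained, with intervals that overlap (17.5 to 24.3 and 19.8 to 26.1). The range of 210 to 500 kb therefore had the largest imbalance between gained and lost among these 6 classes. It also had the highest ratio of 4 dpa to 1 dpa pairs, 1.90, which favours gained pairs beforehand. The classes were not compared with lists of equal length.

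Step by step, the shortest pairs stood apart from all others. At 20 kb, 32.5% of 1 dpa pairs were lost and 45.7% of 4 dpa pairs gained, against 18.2% and 27.7% at 30 kb, 12.2% and 23.2% at 40 kb, and 10.5% and 21.3% at 50 kb. From 60 kb on, the lost share stayed between 5.49% and 12.8% up to 300 kb. The gained share went up from 20.6% at 60 kb to 31.6% at 200 kb and 37.6% at 280 kb. A pair at the shortest listed span has fewer listed neighbours within 1 bin with which it could be matched, in both lists, and the part of this in the shares was not tested.

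Within each span class, pairs missing from the other list were weaker than kept ones. Median count over expected at most 50 kb apart was 2.89 for lost and 3.10 for kept pairs at 1 dpa, and 2.61 for gained and 2.86 for kept pairs at 4 dpa. From 110 to 200 kb the medians were 4.46 for lost against 4.84, and 4.10 for gained against 4.53. From 510 kb to 1 Mb they were 9.32 for lost against 11.2, and 7.96 for gained against 10.9. Median counts from 110 to 200 kb were 18 for lost and 20 for kept pairs at 1 dpa, and 19 for gained and 23 for kept pairs at 4 dpa. Lost and gained sets thus lay nearer the calling limits in all 6 classes. Their values in the other list are not known.

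Every chromosome had more gained than lost pairs, and every one had more pairs in the 4 dpa list than in the 1 dpa list. The number of 4 dpa pairs was 1.32 times that of 1 dpa pairs on chromosome 15, the lowest ratio, and 1.59 times on chromosome 24, the highest. The lost share ran from 10.7% on chromosome 25 (exact binomial interval 8.22 to 13.7) to 17.9% on chromosome 14 (14.8 to 21.3). The gained share ran from 22.6% on chromosome 20 (20.3 to 25.1) to 35.1% on chromosome 13 (32.4 to 38.0). Chosen as extremes, chromosomes 4, 20 and 22 had gained shares of 23.2%, 22.6% and 23.1%, and chromosomes 9, 13 and 21 had 34.8%, 35.1% and 34.5%. The intervals of the former do not overlap those of the latter. Chromosomes of 1 list come from the same pools, so they are not replicates of a condition.

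**Figure D2:**
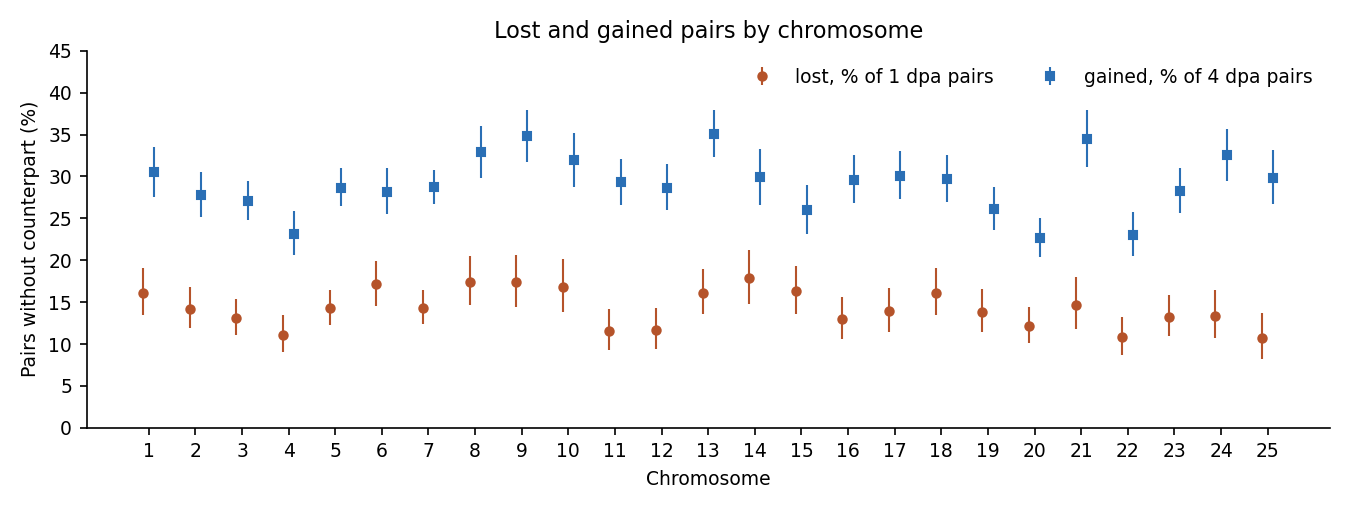
Percent of 1 dpa pairs lost (circles) and of 4 dpa pairs gained (squares) on each of the 25 chromosomes, with exact binomial 95% intervals that cover counting error only. The gained share lies above the lost share on all 25 chromosomes.

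A high gained share did not always come with a high lost share on a chromosome. Chromosome 25 had 4.14 gained pairs for each lost one (232 and 56), chromosome 11 had 3.96 (329 and 83) and chromosome 24 had 3.86. Chromosome 15 had 2.10 (235 and 112), chromosome 14 had 2.22 (226 and 102) and chromosome 6 had 2.22 (304 and 137). Gained pairs had a longer median span than lost pairs on 25 of 25 chromosomes. The difference ran from 10 kb on chromosome 5, where lost pairs had a median of 60 kb and gained pairs of 70 kb, to 80 kb on chromosomes 13 and 18. On both of the latter, lost pairs had a median of 40 kb and gained pairs of 120 kb.

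On a finer scale, 25 of 405 windows of 1 Mb with at least 40 pairs in both lists together, each pair of up to 1 Mb placed by its midpoint, had fewer pairs at 4 dpa than at 1 dpa (6.17%). In 368 there were more, and the median ratio over windows was 1.38 (quartiles 1.17 and 1.67). The whole 4 dpa list was the longer, with 26988 pairs against 18712, and windows were not counted with lists of equal length. The windows named next are among those with the highest and lowest ratios and were chosen after their values were seen. On chromosome 1, 24000001–25000000 had 20, 8 and 32 pairs at 0, 1 and 4 dpa, the highest ratio, of 4. Its neighbour, 25000001–26000000, had 43, 24 and 17, the lowest ratio, of 0.708. These adjacent megabases thus had opposite differences in the number of calls, on few pairs. In the second, 6 pairs were lost and 2 gained. Counting error was not computed for windows. On chromosome 8, 30000001–31000000 had 38, 16 and 55 pairs, with 31 gained and 4 lost. On chromosome 2, 32000001–33000000 was rich in contacts at all times and had 74, 60 and 49. The shared pairs of that window had a median 4 over 1 dpa ratio of 0.964 in count over expected, and those of the chromosome 8 window had 0.914. In both windows the ratio of the number of calls was further from 1 than the median ratio of strength.

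An anchor is a bin that takes part in at least 1 called pair, and its partners are the pairs called there. Anchors were compared as identical bins, without the 1 bin allowed for pairs. A kept pair can thus hold bins that count as new anchors. Of the 4 dpa pairs, 6492 (24.1%) were kept with their nearest 1 dpa call 1 bin away. Anchors were largely shared: 16825 of the 20969 anchor bins at 1 dpa (80.2%) were anchors at 4 dpa too, while 11214 of the 28039 at 4 dpa had not been anchors at 1 dpa. Of the shared anchors, 8443 (50.2%) had equally many partners at both times, 5913 (35.1%) had more at 4 dpa and 2469 (14.7%) had fewer. Gained pairs used 2 bins that were both 1 dpa anchors in 953 cases (12.2%), 1 such bin in 3015 (38.6%) and none in 3840 (49.2%). For lost pairs, 554 (20.8%) had both bins among the 4 dpa anchors, 1038 (39.1%) had 1, and 1066 (40.1%) had none. Gained pairs between bins that were not 1 dpa anchors were shorter, with a median of 60 kb, than those with 1 or 2 such bins (110 kb). Lost pairs without any 4 dpa anchor had a median of 20 kb, the shortest span in the lists.

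Most shared anchors had neither gained nor lost pairs. Of the 16825 shared anchors, 707 (4.20%) had both a gained and a lost pair, 2656 (15.8%) had gained pairs alone, 1062 (6.31%) had lost pairs alone, and 12400 (73.7%) had neither. Anchors with at least 10 partners numbered 95 at 1 dpa and 170 at 4 dpa, and 76 of them were the same bins. At least 5 more partners at 4 dpa were found at 194 bins, 0.603% of the 32183 anchors of either list, and at least 5 fewer at 9 bins (0.028%). With lists of equal length these numbers were 34 and 56, so the excess of anchors with more partners did not hold. That cut removes pairs from the 4 dpa list and none from the 1 dpa list. It can thus only lower the first number and raise the second. With cluster summits alone, 1 pair per cluster, both numbers were 0.

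**Figure D3:**
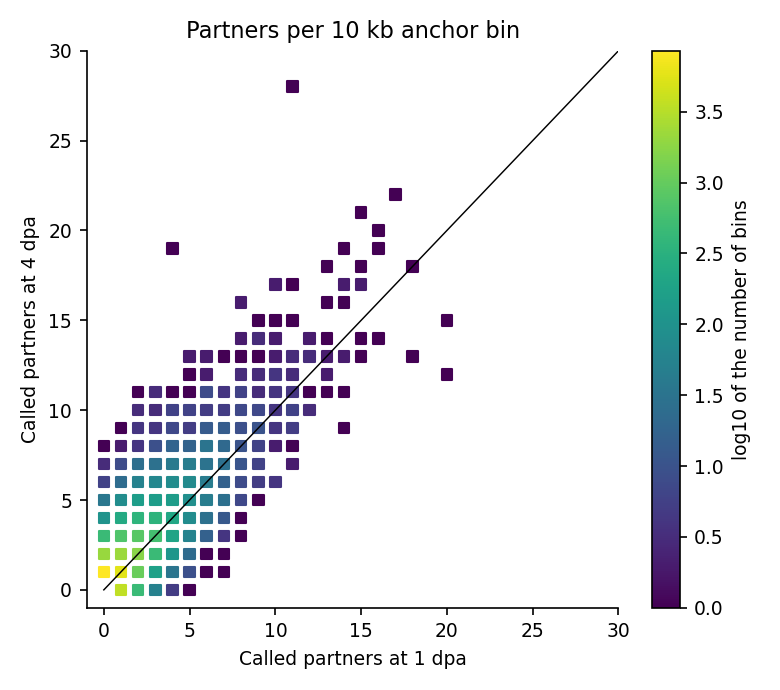
Called partners of each 10 kb anchor bin at 1 dpa (horizontal) and 4 dpa (vertical). The colour gives the log10 of the number of bins at that point, and the line marks equal numbers. Of the bins with 20 partners at 1 dpa, both lie under the line, and the bin with 28 partners at 4 dpa, highest in the plot, had 11 at 1 dpa.

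A few anchors had more called partners during outgrowth. On chromosome 9, the bin at 46840001–46850000 had 15 partners before injury, 11 after 1 day and 28 after 4 days, the most of any bin in the 4 dpa list. All of its partners lay to its right at both times, over the same reach of 580 kb. Its median span was 280 kb at 1 dpa and 330 kb at 4 dpa, and 11 of its 4 dpa pairs were gained and 1 of its 1 dpa pairs lost. Its 9 shared pairs had a median 4 over 1 dpa ratio of 1.05 in count over expected, from 0.758 to 1.70. The added partners thus lay inside the reach that the anchor already had at 1 dpa. The difference of 17 partners was 12 with lists of equal length, 6 with counts of at least 20, 4 with summits alone and 3 for spans up to 200 kb.

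The chromosome 10 anchor 33150001–33160000 had 8, 4 and 19 partners at 0, 1 and 4 dpa, all on its left. Its reach was 260 kb at 1 dpa and 300 kb at 4 dpa, and 12 of the 19 pairs were gained, of which 3 had a 0 dpa counterpart. Its 4 shared pairs had ratios from 0.832 to 1.03. The difference of 15 partners was 8 with lists of equal length and 2 with summits alone. Another chromosome 9 anchor, 37140001–37150000, had 6, 2 and 11 partners, again all on its right, and with summits alone the difference was 0. On chromosome 7, 53270001–53280000 had 10, 5 and 13 partners, and 6 of its 7 gained pairs had a 0 dpa counterpart. On chromosome 12, 8720001–8730000 had 14, 8 and 16 partners on both sides, 7 on the left and 9 on the right at 4 dpa. This difference of 8 was 2 with lists of equal length. On chromosome 19, 25780001–25790000 had 8 partners at 0 and 1 dpa and 16 at 4 dpa. Only 1 of the 16 pairs was gained, so the others lay within 1 bin of a 1 dpa call, and with summits alone the difference was -2.

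Other anchors had fewer partners at 4 dpa. On chromosome 9, the bin at 8450001–8460000 had 33, 20 and 12 partners at 0, 1 and 4 dpa and was among the richest of the 1 dpa list. Its reach was 430 kb at both later times, and none of its 12 pairs at 4 dpa was gained. At its 10 shared pairs the median ratio of count over expected was 1.09, so that these were not lower by the median. On chromosome 8, the bin at 43310001–43320000 had 4, 7 and 1 partners, and its reach was 150 kb at 1 dpa and 20 kb at 4 dpa. On chromosome 6, the bin at 28220001–28230000 had 20 partners at both 0 and 1 dpa and 15 at 4 dpa, all on its right over reaches of 510 kb at 1 dpa and 520 kb at 4 dpa. The chromosome 2 anchor 32010001–32020000 had 16, 18 and 13 partners and lies in the chromosome 2 window with fewer pairs described above. The chromosome 4 anchor 16610001–16620000 had 12, 14 and 9, and the chromosome 13 anchor 35170001–35180000 had 5, 8 and 3. With lists of equal length these 6 differences were from -6 to -10. That cut removes pairs from the 4 dpa list and none from the 1 dpa list. A fall can then only stay or deepen, so this alternative does not test it. With summits alone the differences were from 0 to -3. Those on chromosomes 2 and 4 were 0 with an FDR limit of 0.0001 and with counts of at least 20.

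Other rich anchors had as many partners at 4 dpa as at 1 dpa, or more. The chromosome 18 anchor 34590001–34600000 had 16, 18 and 18 partners, all on its right over 330 kb at both times, and its 14 shared pairs had a median ratio of 0.989. The chromosome 13 anchor 35460001–35470000 had 17, 17 and 22, all on its left, with a reach of 390 kb at 1 dpa and 640 kb at 4 dpa. Its 16 shared pairs had a median ratio of 1.00. The chromosome 20 anchor 22470001–22480000 had 11, 15 and 21, all on its right over 670 kb at both times. Among the anchors named here, partners lay on both sides at 1 or 4 dpa at the bins of chromosomes 12 and 8, at 35170001–35180000 of chromosome 13 and at 8450001–8460000 of chromosome 9, the last with 16 on the left and 4 on the right at 1 dpa. At all the other named anchors they lay on a single side.

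The strongest gained contacts of at most 1 Mb rested on low expected counts. They were ranked by count over expected among pairs with at least 20 counts, a rule that itself favours low expected counts. All 8 named pairs in each set had an expected count below the median of their span class and time, from 1.31 to 2.76 for gained and from 1.29 to 2.87 for lost pairs. Of the 8 gained pairs 6 were also called at 0 dpa, and 7 of the 8 lost pairs were, against 45.1% of all gained and 52.9% of all lost pairs. On chromosome 19, the gained pair 47390001–47400000 and 47930001–47940000 had 26 counts at 4 dpa, 16.9 times expected (exact Poisson interval 11 to 24.7). It had 13 counts at 0 dpa, 9.01 times expected. On chromosome 9, the gained pair 5370001–5380000 and 5660001–5670000 had 39 counts, 14.1 times expected (10.1 to 19.3), in a cluster of 3, and 15 counts at 0 dpa. On chromosome 7, the pair 4850001–4860000 and 4890001–4900000 spanned only 40 kb and had 32 counts, 13.0 times an expected count of 2.46, and 16 counts at 0 dpa.

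The other gained pairs so named included those with no 0 dpa counterpart. On chromosome 3, 45850001–45860000 and 46260001–46270000 had 26 counts at 4 dpa, 11.9 times expected (7.79 to 17.5), with the nearest 0 dpa call 20 bins away. On chromosome 15, 2050001–2060000 and 2380001–2390000 had 20 counts, 11.9 times expected (7.24 to 18.3), with the nearest 0 dpa call 16 bins away. On chromosome 21, 2 gained pairs lay close together: 2650001–2660000 with 3380001–3390000 was 15.3 times expected (9.32 to 23.6), and 2100001–2110000 with 2530001–2540000 was 13.4 times expected (8.27 to 20.4). These had 14 and 19 counts at 0 dpa. The remaining named pair, 29820001–29830000 and 29980001–29990000 of chromosome 24, had a count 16.3 times expected and had its nearest 1 dpa call 2 bins away. It counted as kept when anchors within 2 bins were allowed.

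All 8 lost pairs so named were singletons. On chromosome 5, 43100001–43110000 and 43380001–43390000 had 20 counts at 1 dpa, 15.5 times expected (9.47 to 23.9), and 15 counts at 0 dpa. On chromosome 17, 7990001–8000000 and 8290001–8300000 had 21 counts, 15 times expected (9.29 to 22.9), and 18 at 0 dpa. On chromosome 6, 41830001–41840000 and 42020001–42030000 had 33 counts at 0 dpa and 31 at 1 dpa, 11.6 and 10.8 times expected, and its nearest 4 dpa call was 25 bins away. On chromosome 25, 34110001–34120000 and 34340001–34350000 had 28 counts at 0 dpa and 21 at 1 dpa, 15 and 11.2 times expected. Both of these were called at 0 and 1 dpa and not at 4 dpa. The single lost pair of the 8 that was not called at 0 dpa lay on chromosome 9, between 18250001–18260000 and 18700001–18710000, with 24 counts, 14.0 times expected (8.95 to 20.8).

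Over 1 Mb, expected counts were close to 1 and the ratios close to the counts. A lost pair on chromosome 6 between 40880001–40890000 and 47760001–47770000, 6.88 Mb apart, had 27 counts at 0 dpa and 30 at 1 dpa. Another on chromosome 22, between 18040001–18050000 and 24200001–24210000 and 6.16 Mb apart, had 19 and 29. The gained pair on chromosome 4 between 72090001–72100000 and 77290001–77300000, 5.2 Mb apart, had 16 counts at 0 dpa and 22 at 4 dpa. That on chromosome 21 between 42830001–42840000 and 44110001–44120000, 1.28 Mb apart, had 28 counts at 4 dpa, and its nearest 0 dpa call was 74 bins away.

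Contacts found in identical bins at both stages had similar strength. For these 12688 shared pairs the median 4 over 1 dpa ratio of count over expected was 0.947, with quartiles of 0.822 and 1.1. At least 1.5-fold higher at 4 dpa were 411 pairs (3.24%), and at least 1.5-fold lower were 731 (5.76%). The exact conditional binomial interval of the ratio, which covers counting error alone, lay above 1 for 118 pairs (0.93%) and below 1 for 340 (2.68%). These intervals are not adjusted for the number of pairs, and only pairs past the limits at both times could be compared, so a pair that went under a limit at one time is not among them. The median depended on the scaling. Raw counts divided at each time by their sum over the shared pairs gave 1.00, with 570 pairs higher and 626 lower. This scaling makes the summed counts of these pairs equal, so a median near 1 is largely built in. Centring divides every ratio by the median, which by construction shifts pairs from lower to higher, and gave 621 higher and 466 lower pairs.

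**Figure D4:**
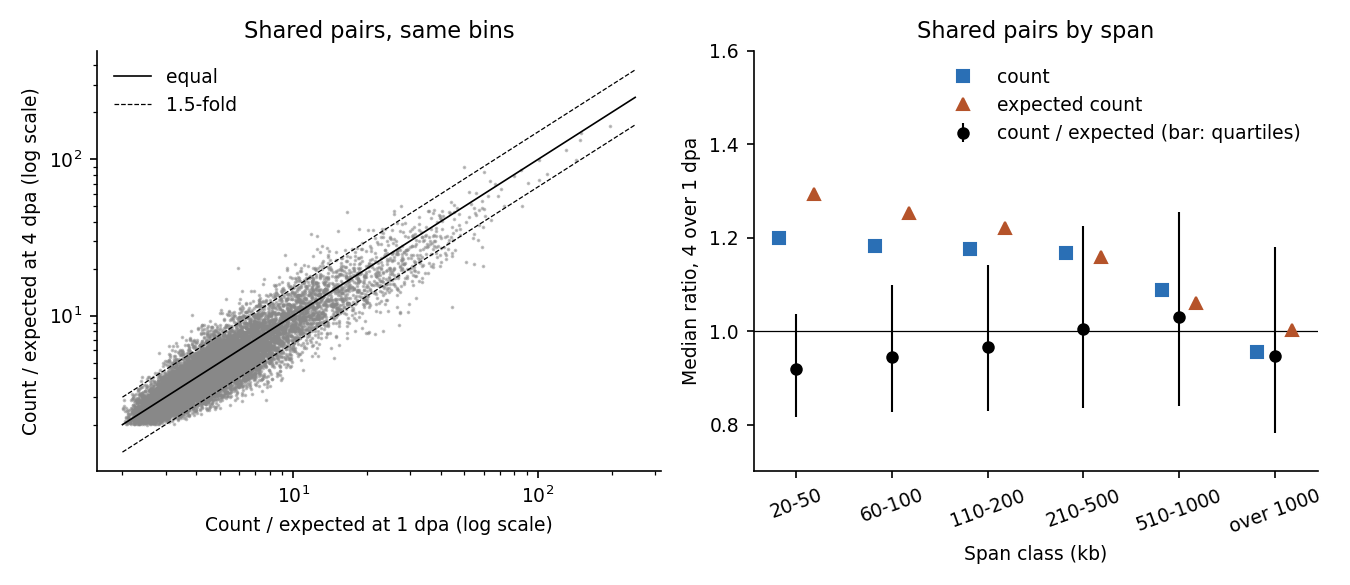
Left, count over expected of 12688 shared pairs at 1 and 4 dpa on log scales, with lines for equal values and for 1.5-fold differences. Right, median 4 over 1 dpa ratio of the count, the expected count and count over expected (bars give the quartiles) in 6 span classes. The expected count ratio goes from 1.29 in the shortest class to 1.00 over 1 Mb, and the count ratio from 1.2 to 0.955.

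The count and the expected count differed in how their ratios changed with span. At most 50 kb apart, the count was 1.2 times and the expected count 1.29 times as high at 4 dpa by the median of 4213 pairs, giving a ratio of 0.919, which was 1.02 with scaled raw counts. From 210 to 500 kb the count was 1.17 times and the expected count 1.16 times as high, giving 1.01 for 1702 pairs. That value was 0.985 for pairs with at least 20 counts at both times and 0.990 with scaled raw counts, so its side of 1 is not fixed. At most 50 kb apart, the 2-fold limit and spans up to 200 kb use the same pairs and ratios, so they could not change the value. Under every other alternative run for it but scaled raw counts, the only one without the expected counts, the ratio was below 1. That scaling sets the general level by itself, so it cannot show on which side of 1 a class lies. Centring sets its own level too. The order of the classes does not depend on the level. At most 50 kb apart and from 210 to 500 kb, scaled raw counts gave 1.02 and 0.990. Count over expected gave 0.919 and 1.01, the opposite order. Over 1 Mb, the count was 0.955 times as high and the expected count 1.00 times, giving 0.947 for 433 pairs. Higher pairs were 0.522% of those at most 50 kb apart and 8.52% of those from 210 to 500 kb, against 3.24% of all shared pairs. Lower pairs were 5.17% and 6.05%, against 5.76% of all. The larger shares at long spans go with lower counts, a median of 17 at 1 dpa from 210 to 500 kb against 40 at most 50 kb apart, and the part of counting error in them was not tested. The share of intervals above 1 was 1.70% from 210 to 500 kb and 0.380% at most 50 kb apart, and that of intervals below 1 was 1.35% and 4.23%.

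The strongest shared contacts stood apart. Pairs of at most 1 Mb were classed by the geometric mean of their count over expected at both times, so that neither time chose them. For the 178 pairs with a mean of at least 20, the median ratio was 0.825, and the count was 0.958 times as high at 4 dpa. Of these, 35 pairs (19.7%) were at least 1.5-fold lower and 4 (2.25%) higher, against 5.76% and 3.24% of all shared pairs. Means from 10 to 20 gave a median ratio of 0.969 (776 pairs), with 10.4% lower and 8.51% higher. Means from 5 to 10 gave 0.976 (3690 pairs), means from 3 to 5 gave 0.94 (5565 pairs), and means from 2 to 3 gave 0.931 (2046 pairs). Ranked by their 4 dpa value, 1 per cluster, the strongest pair lay on chromosome 7, between 5200001–5210000 and 5560001–5570000, with 452, 399 and 362 counts at 0, 1 and 4 dpa. That is 193, 198 and 164 times expected, and the 4 over 1 dpa ratio was 0.830 (0.718 to 0.960). On chromosome 22, 6600001–6610000 and 6730001–6740000 had 221, 208 and 147 counts, with a ratio of 0.691 (0.556 to 0.857). On chromosome 12, 43770001–43780000 and 44060001–44070000 had 126, 107 and 109, a ratio of 0.973 (0.738 to 1.28). On chromosome 7, 2280001–2290000 and 2420001–2430000 had 104, 101 and 100, a ratio of 0.921 (0.691 to 1.23). The last pair of ratios was thus within counting error of 1.

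The shared contacts with the largest 4 over 1 dpa ratios had fewer counts at 1 dpa than in uninjured fins. Of the 8 with the largest ratio, 1 per cluster and with at least 20 counts at one of the times, 7 were nearer the 0 dpa value at 4 dpa than at 1 dpa, against 44.2% of all pairs in the 3 lists and 61.2% of those at least 1.5-fold higher. These pairs were chosen for a low 1 dpa value, so this is a description. The largest ratio was at 5960001–5970000 with 6430001–6440000 on chromosome 7, whose counts in order of time were 46, 12 and 45, a ratio of 3.38 (1.76 to 7.02). On chromosome 16, 21240001–21250000 and 21400001–21410000 had 33, 15 and 45 counts, a ratio of 2.60 (1.42 to 5.02). On chromosome 17, 47000001–47010000 and 47850001–47860000 had 23, 12 and 33, a ratio of 2.65 (1.34 to 5.64). The pair on chromosome 18 between 2810001–2820000 and 2990001–3000000 was the exception, with 15, 12 and 32 counts and a ratio of 2.42 (1.21 to 5.16). The other 4 spanned over 1 Mb. The pair of 6.57 Mb on chromosome 13 had 33, 12 and 34 counts at 0, 1 and 4 dpa, and that of 9.74 Mb on chromosome 16 had 39, 17 and 47. The pair of 6.99 Mb on chromosome 21 had 22, 13 and 34, and that of 1.18 Mb on chromosome 25 had 41, 18 and 43. Each of the 8 had its lowest count at 1 dpa.

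Of the 8 shared contacts with the smallest ratios, chosen by the same rule, 2 were nearer the 0 dpa value at 4 dpa than at 1 dpa, a share close to the 27.4% of all pairs at least 1.5-fold lower. On chromosome 23, 41980001–41990000 and 42240001–42250000 had 37 counts at 0 and 1 dpa and 14 at 4 dpa, a ratio of 0.343 (0.171 to 0.649). On chromosome 15, 41310001–41320000 and 41340001–41350000 had 43, 48 and 24, a ratio of 0.367 (0.215 to 0.611), and its expected count was 1.36 times as high at 4 dpa. On chromosome 4, 77640001–77650000 and 77670001–77680000 had 35, 44 and 24, with a ratio of 0.374 (0.218 to 0.629) and an expected count 1.46 times as high. On chromosome 15, 47230001–47240000 and 47560001–47570000 had 22, 38 and 14, a ratio of 0.352 (0.176 to 0.664). The pair on chromosome 10 between 940001–950000 and 1200001–1210000 was highest at 1 dpa, with 34, 59 and 23 counts and a ratio of 0.357 (0.210 to 0.587), and was nearer the 0 dpa value at 4 dpa. The smallest ratio, 0.255, was on chromosome 6 between 12960001–12970000 and 30490001–30500000, 17.53 Mb apart, with 40, 47 and 12 counts. The pairs named for high and low ratios are extremes of 12688 pairs, and their counting intervals do not allow for that choice.

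Of the differences between the 1 and 4 dpa lists, 45.6% led back to the uninjured list. Of the 7808 gained pairs 3524 had a 0 dpa counterpart (45.1%, exact binomial interval 44.0 to 46.2), so that they were called at 0 and 4 dpa and not at 1 dpa. The remaining 4284 were called at neither earlier time. Of the 2658 lost pairs 1407 had a 0 dpa counterpart (52.9%, 51.0 to 54.8) and thus were called until 1 dpa, and 1251 were called at 1 dpa alone. Together 4775 of the 10466 differences ended in the uninjured state, present or absent. Kept pairs were nearly all in the 0 dpa list, 94.3% of those at 1 dpa and 93.6% of those at 4 dpa. The 0 dpa list was the longest, and with lists of equal length 37.5% of gained and 48.0% of lost pairs had a 0 dpa counterpart.

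**Figure D5:**
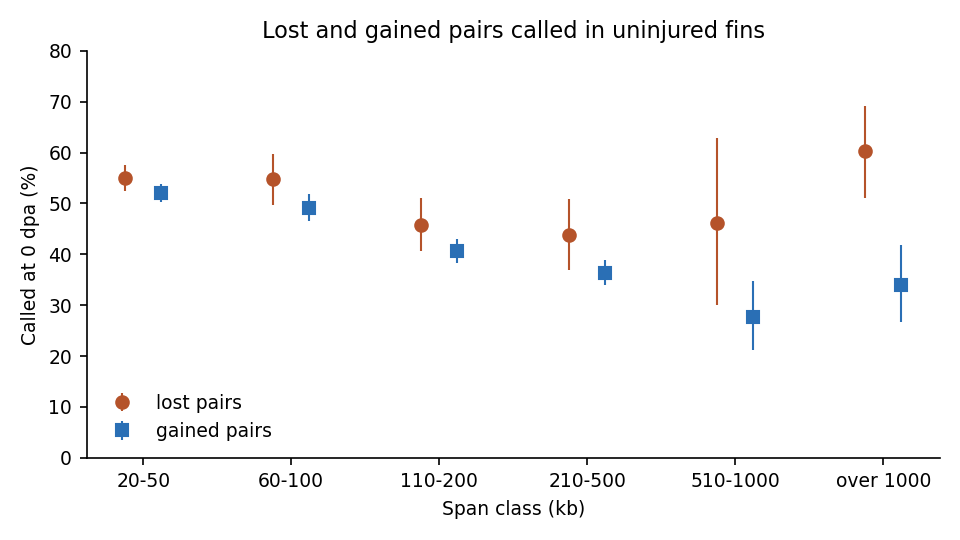
Percent of lost pairs (circles) and of gained pairs (squares) that had a counterpart in uninjured fins at 0 dpa, in 6 span classes, with exact binomial 95% intervals for counting error. Among gained pairs the share goes from 52.1% at most 50 kb apart to 27.6% from 510 kb to 1 Mb.

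Up to 1 Mb, the share of gained contacts known from uninjured fins was lower in each longer span class. At most 50 kb apart, 1521 of 2921 gained pairs (52.1%) had a 0 dpa counterpart. The share was 49.2% from 60 to 100 kb, 40.6% from 110 to 200 kb, 36.4% from 210 to 500 kb and 27.6% (50 of 181) from 510 kb to 1 Mb, and over 1 Mb it was 34.0%. The 0 dpa list had 12624 pairs at most 50 kb apart, against 8644 at 4 dpa. It had 3040 against 4401 from 210 to 500 kb, and 385 against 510 from 510 kb to 1 Mb. Longer gained pairs thus had fewer 0 dpa pairs to match, and the part of this in the shares was not tested. The median span was 70 kb for gained pairs with a 0 dpa counterpart and 110 kb for those without. The former had a median of 27 counts, 3.35 times expected, and the latter 22 counts, 3.70 times expected. Lost pairs did not follow the same order. Their share with a 0 dpa counterpart was 55.0% at most 50 kb apart, 43.8% from 210 to 500 kb and 60.3% over 1 Mb (73 of 121). Lost pairs with and without a 0 dpa counterpart both had a median span of 40 kb. By chromosome, the share of gained pairs called at 0 dpa ran from 37.9% on chromosomes 16 and 25 to 56.8% on chromosome 22, and that of lost pairs from 44.3% on chromosome 19 to 61.8% on chromosome 3.

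Anchors, compared as identical bins, showed a similar split. Of the 11214 bins that were anchors at 4 dpa and not at 1 dpa, 4951 (44.2%) were anchors at 0 dpa, and of the 4144 that were anchors at 1 dpa alone of the 2 later times, 2122 (51.2%) were. For strength, 10726 of the shared pairs were called in the same bins at 0 dpa too. Their median count over expected, in order of time, was 5.00, 4.67 and 4.45, and 44.2% of them were nearer the 0 dpa value at 4 dpa than at 1 dpa. Among the 376 that were at least 1.5-fold higher at 4 dpa, 230 (61.2%) were nearer it at 4 dpa, with medians of 7.87, 5.39 and 9.11 at 0, 1 and 4 dpa. Among the 672 that were at least 1.5-fold lower, 184 (27.4%) were nearer it at 4 dpa, with medians of 6.39, 7.23 and 4.29. Higher pairs thus ended nearer the uninjured strength more often than all shared pairs, and lower pairs less often. Both groups were chosen by the 1 and 4 dpa counts, so these shares are a description.

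Span classes differed in the course of count over expected over all 3 times, while their median counts were all highest at 4 dpa up to 1 Mb. For pairs of at most 50 kb the median count over expected was 3.63, 3.33 and 3.09 at 0, 1 and 4 dpa (3680 pairs), lower at each later time. The 4 over 1 dpa ratio of this class was above 1 only with scaled raw counts. These set the general level by themselves and are the only alternative without the expected counts. From 210 to 500 kb the median count over expected was 7.97, 7.26 and 7.71 (1366 pairs), and from 510 kb to 1 Mb 13.5, 12.5 and 14.0 (186 pairs), lowest at 1 dpa in both. The median of the pairwise 4 over 1 dpa ratios was 0.920, 1.02 and 1.03 in these classes. Median counts of the same pairs were 46, 41 and 49 at 0, 1 and 4 dpa at most 50 kb apart. They were 21, 19 and 22.5 from 210 to 500 kb, and 19, 19 and 22 from 510 kb to 1 Mb. At most 50 kb apart, the lower 4 dpa value thus held for count over expected and not for the count.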

How the data were processed

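HiCAR libraries of 3 pools per time point were made from zebrafish fins. The submitters' processing notes name BWA and danRer11. Which caller was used, the terms of its background model and how pools were combined: not given in the sources used here. The authors deposited 1 list per time point. Per the file headers, each row gives the deposited contact count of a pair of 10 kb bins, the expected count of the authors' model, a false discovery rate (a q-value) and the −log10 p of its cluster. Times were read from the list names, which match the sample titles.

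Lists were matched with Python 3.11.15, numpy 2.4.6, pandas 2.3.3 and scipy 1.17.1, both anchors within 1 bin. Count over expected has exact Poisson intervals and its 4 over 1 dpa ratio exact conditional binomial ones, both at 95%. Matching and the interval of the ratio were tested on simulated independent pairs, without clusters or calling limits. The other intervals were not tested in this way. Spans are distances between bin starts, and positions are 1-based in danRer11. The pairs, rules and lists were chosen with earlier results of these data known. Named were the 8 strongest gained and lost pairs up to 1 Mb and the 2 over 1 Mb (at least 20 counts, 1 per cluster), the 8 largest and smallest ratios of shared pairs, the 4 strongest kept pairs up to 1 Mb, the 6 anchors with the largest rise and fall in partner number, and the 3 richest per time. The alternatives are identical bins, 2 bins, an FDR limit of 0.0001 for every list or for one side, counts of at least 20, equal list lengths, no singletons, summits, spans up to 200 kb, no chromosome 4, scaled raw counts, centred ratios and a 2-fold limit. Genes, promoters and sequences of the anchors, which had been planned, were not analysed here, for want of a danRer11 annotation among the files used.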

Additional observations from a re-analysis of the deposited data

How the results depend on the processing

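No paired analysis was possible because the lists hold 1 value per time point, so leaving out a pool could not be run either. More pairs were gained than lost on every chromosome under every alternative run. With identical bins this follows from each chromosome having more pairs in the 4 dpa list. The other alternatives, except equal lengths, also kept the 4 dpa list longer, which favours gained pairs beforehand. With equal lengths the total excess can arise only where several 1 dpa pairs match the same 4 dpa pair. The alternatives therefore cannot show whether more contacts were new than missing. Of the alternative values of the leading results, 66 of 153 stayed within the limits used, which are 1.5 times for a count and the 95% interval of the reported share or median for other values. A further 83 moved past these limits, and 4 changed side of 1. The latter were median ratios of shared pairs with scaled raw counts or with counts of at least 20. Single anchors varied widely: over the alternatives run for them the partner difference ran from 3 to 16 at 46840001–46850000 of chromosome 9, from 2 to 11 on chromosome 10, from 2 to 8 on chromosome 12, from -10 to -1 at 8450001–8460000 of chromosome 9, from -7 to 0 on chromosome 2 and from -6 to 0 on chromosome 4. The causes of the shifts were not tested. Depth is unknown and only called pairs have values.

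With identical bins, 14300 were gained (53.0%) and 6024 lost (32.2%), with median spans of 100 and 70 kb and 0 dpa shares of 35.0% and 42.9%. With anchors within 2 bins, 22.6% were gained and 10.4% lost, lost pairs had a median of 30 kb, and the 0 dpa shares were 47.6% of gained and 55.4% of lost.

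With FDR of at most 0.0001 in all lists, 30.1% were gained and 16.6% lost, and 42.3% and 48.0% of them were called at 0 dpa. Then 62 anchors had at least 5 more partners and 3 at least 5 fewer, the median ratio was 0.94 (0.909 from 20 to 50 kb), and 223 pairs were higher and 449 lower. With that limit on one side, 4344 were gained (25.1%, median 80 kb) and 1628 lost (13.5%, of which 50.1% were called at 0 dpa).

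With counts of at least 20, 30.2% were gained and 15.6% lost, with medians of 60 and 30 kb, and 46.6% of gained pairs were called at 0 dpa. There were 90 anchors with more partners and 1 with fewer, 138 higher pairs, and a median ratio of 0.932, with 0.985 from 210 to 500 kb.

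With lists of equal length, 4786 were gained (25.6%) and 17.8% lost (median 50 kb), and 37.5% and 48.0% were called at 0 dpa. There were 34 anchors with more partners and 56 with fewer, and the median ratio was 0.983, with 0.947 from 20 to 50 kb and 1.05 from 210 to 500 kb.

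Without singletons, 32.7% were gained (median 100 kb) and 14.9% lost, 463 pairs were lower, and the median ratio was 0.958, with 0.931 from 20 to 50 kb and 1.03 from 210 to 500 kb. With cluster summits, 4234 were gained (42.6%, median 70 kb) and 23.7% lost, and 38.7% and 48.5% were called at 0 dpa. Summits gave 0 anchors with at least 5 more and 0 with at least 5 fewer partners, 105 higher and 297 lower pairs, and a median ratio of 0.926 (0.898 from 20 to 50 kb). The anchor on chromosome 19 then had a difference of -2.

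Up to 200 kb, 28.3% were gained and 14.8% lost, with medians of 60 and 30 kb, and 48.0% of gained pairs were called at 0 dpa. There were 89 anchors with more partners, 203 higher pairs and a median ratio of 0.938. Raw counts scaled by their sum over the shared pairs gave a median ratio of 1.00. It was 1.02 from 20 to 50 kb and 0.990 from 210 to 500 kb. Centred ratios had a median of 1 by construction, with 0.971 and 1.06 in those classes, and 621 pairs were higher and 466 lower. At a 2-fold limit 37 were higher and 61 lower.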
